A study of Mus musculus with 14 samples.

Results

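The lymphotoxin and lymphoid tissue organizing genes were followed tumor by tumor in 2 mouse models of breast cancer, with or without nicotinamide (NAM, a form of vitamin B3). The 9 genes were chosen by name, and all 9 were found among the 56414 genes of the table of normalized counts. They comprise the ligands Lta, Ltb, Tnfsf14 and Tnfsf13b, the receptors Ltbr and Tnfrsf13c, and the adhesion molecules Madcam1, Vcam1 and Icam1. Bulk RNA-seq had been performed on 14 tumors from female C57Bl/6 mice. The first model was driven by M/D, meaning a 50 mg medroxyprogesterone acetate (MPA) pellet that released its content over 90 days, implanted at 6 to 9 weeks of age, plus repeated oral gavage of 200 µL of 7,12-dimethylbenz[a]anthracene (DMBA) at 5 mg/mL. The second model was made by subcutaneous injection of 1000000 AT3 cells, a transplantable mouse mammary carcinoma line, so that all 6 AT3 tumors descend from 1 cell line. Mice with tumors of 0.25 cm2 were randomized to no treatment or to 0.5% NAM in the drinking water for 10 days. This gave 4 M/D-driven tumors and 3 AT3 tumors in each arm, untreated or NAM-treated. All M/D-driven mice carried MPA and DMBA exposure, the untreated ones included. The labels do not state that each tumor came from a different mouse, so the p values measure the spread between these tumors.

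Lymphotoxin alpha (Lta) and lymphotoxin beta (Ltb) form a membrane-bound heterotrimer on lymphocytes, which signals through the lymphotoxin beta receptor (Ltbr) on stromal and endothelial cells. LIGHT, the product of Tnfsf14, shares that receptor. Signaling downstream of Ltbr activates noncanonical and canonical NF-kB, and drives the stromal chemokines and adhesion molecules with which lymph nodes, and lymphoid aggregates in inflamed tissue and tumors, collect lymphocytes. BAFF, the product of Tnfsf13b, is made largely by myeloid and stromal cells and keeps mature B cells alive through its receptor, encoded by Tnfrsf13c. Madcam1, Vcam1 and Icam1 are displayed by activated endothelium and bind leukocyte integrins.

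Recovered reads per tumor ranged from 40936868 to 84178009. The M/D-driven and AT3 tumors had been normalized separately, so normalized counts are set side by side only within a model, and levels are not compared between genes because the length over which reads were counted is not given in the sources used here. NAM-treated M/D-driven tumor 1 stood apart from the other 7 M/D-driven tumors, and it was the only one of the 8 labelled as experiment 2. Its summed normalized count over 9 B cell markers was 196991, against 440.1 to 2681 in the others. Over 10 precursor B cell markers it was 259739, against 1475 to 2288. Its sum over 9 epithelial markers was 8283, against 273739 to 1044520, and each of these 9 genes was lowest in that tumor, although none was at 0. The 6 AT3 tumors, on their own scale, had sums of 76504 to 110407 over this epithelial list. These sums rested unevenly on its genes, with means in untreated AT3 tumors of 274 for Krt19 and 14956 for Krt14. The comparisons that include NAM-treated M/D-driven tumor 1 are therefore also given without it. For the order of the models and the likeness between genes this was added after seeing the data. In bulk RNA, fewer cells of a type and less RNA per cell cannot be told apart.

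Promoter sequences were read for the members, since Ltbr signals to NF-kB and several members are textbook NF-kB targets. RefSeq windows on GRCm38.p6 were found for 8 of 9 members (Vcam1 had none), and the 250 bases before each start site were searched on both strands for the kB consensus. The Madcam1 window (chr10:79664309-79664558, plus strand) held 2 matches, which began 83 and 70 bases before the start site. The Ltb window (chr17:35194257-35194506, plus strand) held 1 match, which began 87 bases before the start site. The other 6 members with a window held no match to this consensus in these bases, and 7.25% of all 32851 windows of this length held at least 1. The windows with a match are shown with the matches in capitals, and the Icam1 window (chr9:21015690-21015939, plus strand) is shown beside them because Icam1 carried the clearest expression differences described further on.
Madcam1: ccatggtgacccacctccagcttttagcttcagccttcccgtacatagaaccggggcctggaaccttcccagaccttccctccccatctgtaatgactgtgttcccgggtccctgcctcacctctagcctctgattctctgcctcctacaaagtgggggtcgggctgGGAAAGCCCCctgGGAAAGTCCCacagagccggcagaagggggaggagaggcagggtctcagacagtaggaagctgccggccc
Ltb: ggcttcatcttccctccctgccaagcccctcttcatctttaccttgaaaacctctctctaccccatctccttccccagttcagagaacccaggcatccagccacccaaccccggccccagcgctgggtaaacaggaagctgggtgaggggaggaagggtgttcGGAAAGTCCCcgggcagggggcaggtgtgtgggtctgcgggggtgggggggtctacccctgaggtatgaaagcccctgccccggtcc
Icam1: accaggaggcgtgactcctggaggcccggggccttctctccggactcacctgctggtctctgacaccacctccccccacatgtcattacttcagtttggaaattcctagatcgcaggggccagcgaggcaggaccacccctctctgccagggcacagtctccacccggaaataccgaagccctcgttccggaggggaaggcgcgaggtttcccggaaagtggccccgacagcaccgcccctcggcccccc
A match is a description of these letters, and binding was not measured. A window without a match may still hold a kB site, because stretches that depart from the consensus were not counted. The Icam1 window, for example, holds the letters tggaaattcc, which were not counted.

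Lta (chr17:35203164-35205351, mm10) and Ltb (chr17:35194507-35196391) lie side by side, and their rows in the table also carry the microRNA symbols Mir6974 and Mir6973a. Normalized counts of Lta were 103, 99.96, 48.8 and 35.4 in untreated M/D-driven tumors 1 to 4, and 1614, 48.7, 23.9 and 156 in the NAM-treated ones. Thus NAM-treated tumor 1 was higher than any other M/D-driven tumor, and the remaining 3 NAM-treated tumors spanned the untreated ones. In AT3 tumors Lta was low, at 20.3, 4.06 and 35.8 when untreated and 24.3, 5.64 and 6.61 with NAM, and these values rested on 4 to 44 reads. In M/D-driven tumors Ltb was 1632, 671, 780 and 692 when untreated, as compared to 7886, 1168, 550 and 1389 with NAM. Here, too, NAM-treated tumor 1 was highest, and untreated tumor 1 was well above the other untreated tumors. In AT3 tumors Ltb was 200.0, 66.0 and 266 when untreated, and 341, 111 and 109 with NAM, and the ranges overlapped.

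Tnfsf14, which encodes LIGHT (chr17:57189474-57194184), had normalized counts of 218, 89.1, 247 and 361 in untreated M/D-driven tumors, against 39.0, 571, 99.4 and 253 with NAM. Unlike for lymphotoxin, NAM-treated tumor 1 was the lowest M/D-driven tumor and NAM-treated tumor 2 the highest. In AT3 tumors Tnfsf14 was 17.4, 36.6 and 44.0 when untreated, as compared to 65.6, 37.6 and 69.4 with NAM. Only NAM-treated AT3 tumor 2 fell within the untreated range. Tnfsf13b, which encodes BAFF (chr8:10006465-10037845), was 733, 814, 653 and 663 in untreated M/D-driven tumors, and 539, 469, 359 and 736 with NAM. Of the NAM-treated M/D-driven tumors, 3 lay below all untreated ones and tumor 4 did not. Tnfsf13b was 171, 131 and 333 in untreated AT3 tumors, and 332, 207 and 89.2 in NAM-treated ones, which overlapped.

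Ltbr (chr6:125306571-125313870), the receptor for lymphotoxin and LIGHT, was 3299, 4116, 3511 and 4569 in untreated M/D-driven tumors. With NAM it was 1294, 4281, 3537 and 3470, so that 3 tumors were within the untreated range and tumor 1 was far below it. AT3 tumors had 7017, 4433 and 5367 untreated, and 4687, 4854 and 4389 with NAM. Tnfrsf13c (chr15:82221743-82224370), the BAFF receptor of B cells, was 170, 590.0, 52.6 and 50.7 in untreated M/D-driven tumors. With NAM it was 5072, 122, 20.3 and 59.4. The value in NAM-treated tumor 1 was thus set against a maximum of 590.0 in the other 7 M/D-driven tumors. In AT3 tumors Tnfrsf13c ranged from 12.2 to 53.7 and the groups overlapped.

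Madcam1 (chr10:79664573-79668536), the addressin of mucosal high endothelial venules, was 75.8, 6.52, 37.5 and 105 in untreated M/D-driven tumors and 776, 36.5, 170 and 40.1 in NAM-treated ones. NAM-treated tumor 1 was highest, followed by NAM-treated tumor 3. Madcam1 was hardly detected in AT3 tumors, with 0, 2 and 6 reads in untreated and 4, 8 and 2 reads in NAM-treated ones, and it did not reach the minimum for testing there. A count of 0 allows for up to 3 reads, counting error only. Vcam1 (chr3:116109951-116129688), the endothelial and stromal ligand of the integrin containing Itga4, was 2087, 3421, 1766 and 1741 in untreated M/D-driven tumors. It was 8032, 1259, 3206 and 12628 with NAM, so that NAM-treated tumors included both the highest M/D-driven tumor (tumor 4) and the lowest (tumor 2). In AT3 tumors, Vcam1 was 125, 178 and 321 when untreated, and 306, 248 and 305 with NAM.

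Icam1 (chr9:21015960-21028813), the ligand of the integrins containing Itgal or Itgam, was 4389, 4959, 4100 and 4824 in untreated M/D-driven tumors and 4714, 3954, 5314 and 5878 in NAM-treated ones. The 8 values were close together, and NAM-treated tumor 1 was in their midst, at rank 5 from the top. In AT3 tumors Icam1 was 206, 188 and 344 when untreated and 409, 452 and 386 with NAM. Each NAM-treated AT3 tumor was above each untreated one.

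**Figure D1:**
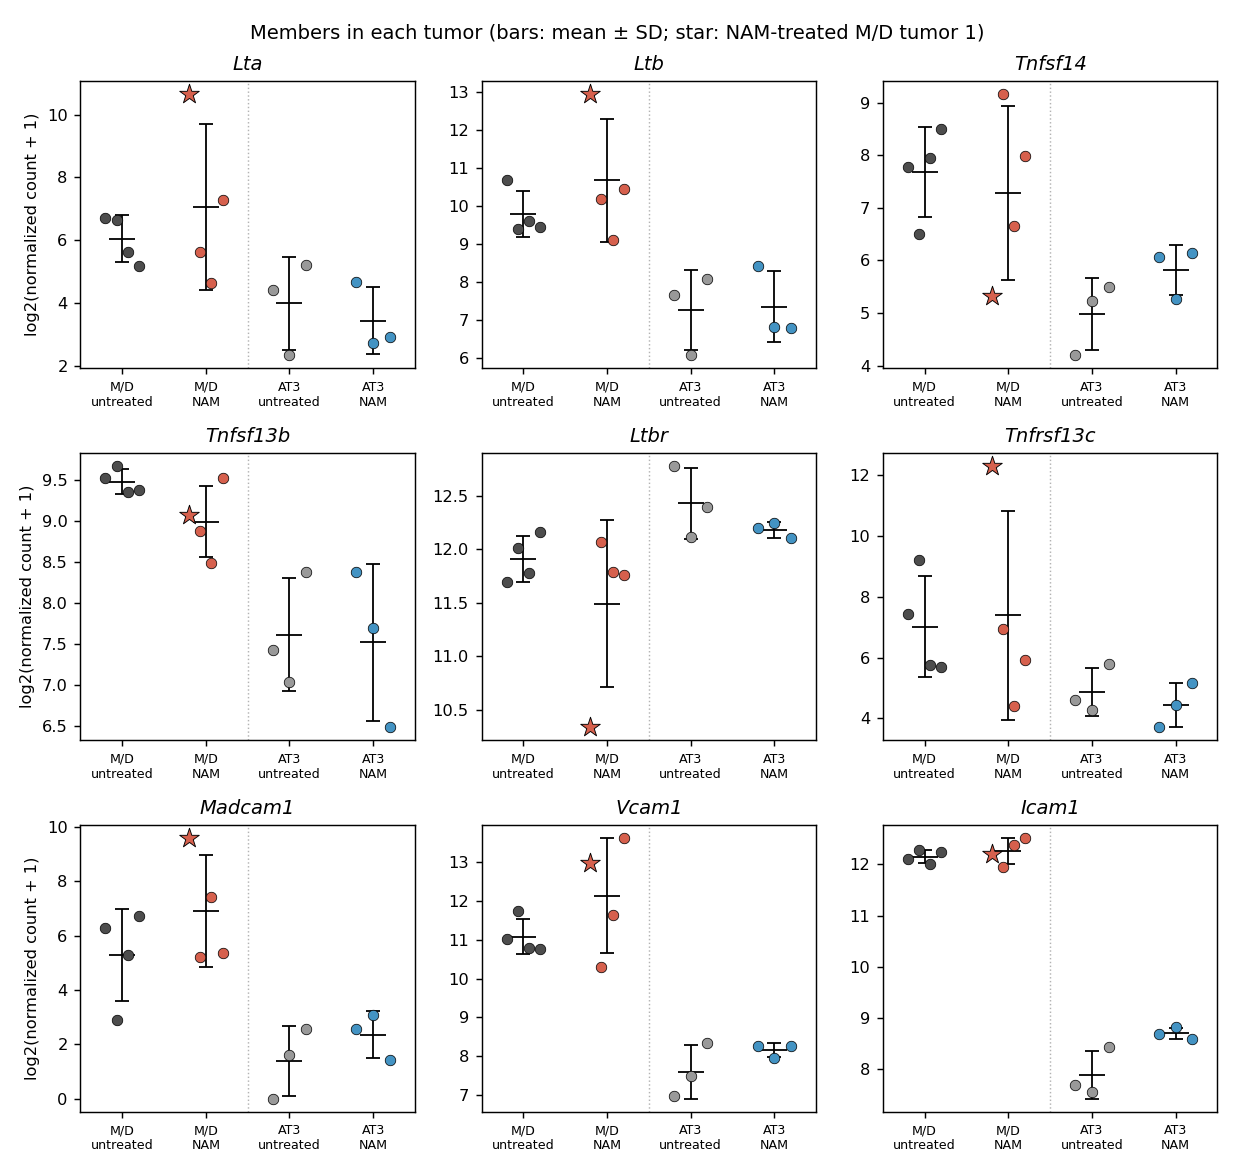
Each panel plots 1 of the 9 genes as log2(normalized count + 1) in the 4 M/D-driven tumors and 3 AT3 tumors of each treatment (points, 1 per tumor), with the mean and SD as bars and NAM-treated M/D-driven tumor 1 as a star. The 2 models were normalized separately and should be compared within a side of the dotted line, where the star is the highest M/D-driven tumor for Lta, Ltb, Tnfrsf13c and Madcam1 and the lowest for Tnfsf14 and Ltbr.

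The first comparison asked whether 10 days of NAM changed these genes in M/D-driven tumors. None of the 9 members passed the test, which was limma on log2(normalized count + 1), called when the unadjusted p did not exceed 0.05 and the change was 1.5-fold or more. None reached that p at any fold change, and edgeR on the recovered reads also called 0. DESeq2 called 2 members, Madcam1 at 2.19 and Vcam1 at 1.48, with adjusted p values of 0.40 and 0.34 by DESeq2. It gave no p for Lta and Tnfrsf13c. Those DESeq2 calls include NAM-treated tumor 1, where Madcam1 was 776 against at most 170 in the other 7 M/D-driven tumors. DESeq2 was not run without that tumor. Over all 21700 genes tested, 6.22% passed by limma (3.03% higher and 3.19% lower with NAM) and 9.74% by DESeq2. No member separated the groups either, as against 4.43% of all genes. For Lta the log2 fold change was 1.01 (SE 1.19, adjusted p = 0.86 by limma with Benjamini-Hochberg adjustment), and for Ltb 0.89 (SE 0.75, adjusted p = 0.80). Madcam1 had 1.61 (SE 1.17) and Vcam1 1.05 (SE 0.67), while Icam1 had 0.11 (SE 0.18). Tnfsf13b differed by -0.49 (SE 0.26, unadjusted p = 0.098 by limma), Ltbr by -0.42 (SE 0.37), Tnfsf14 by -0.40 (SE 0.82) and Tnfrsf13c by 0.38 (SE 1.63). Exact two-sided permutation tests over the 8 tumors gave p values between 0.114 (Tnfsf13b) and 0.857 (Tnfrsf13c), where 0.0286 is the smallest this design allows. The median log2 fold change was 0.38 over the members and 0.01 over all genes.

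Without NAM-treated tumor 1, all tumors were from experiment 1 and again none of the 9 members passed, as compared to 5.17% of all genes. The log2 fold change of Lta was then -0.19 (SE 0.71), that of Ltb 0.13 (SE 0.43) and that of Ltbr -0.04 (SE 0.18). Tnfrsf13c turned to -1.26 (SE 0.99) and Tnfsf14 to 0.25 (SE 0.68). Hence Lta, Tnfrsf13c and Tnfsf14 changed sign with this tumor. The estimate for Madcam1 was 0.71 (SE 1.01), that for Vcam1 0.78 (SE 0.71), that for Tnfsf13b -0.52 (SE 0.27) and that for Icam1 0.13 (SE 0.18). The median log2 fold change over the members was then 0.13, and that over all genes -0.0022. Calls depended on individual tumors for 2 members. Vcam1 passed without NAM-treated tumor 2 (log2 fold change 1.67) and Tnfsf13b passed without NAM-treated tumor 4 (-0.67).

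**Figure D2:**
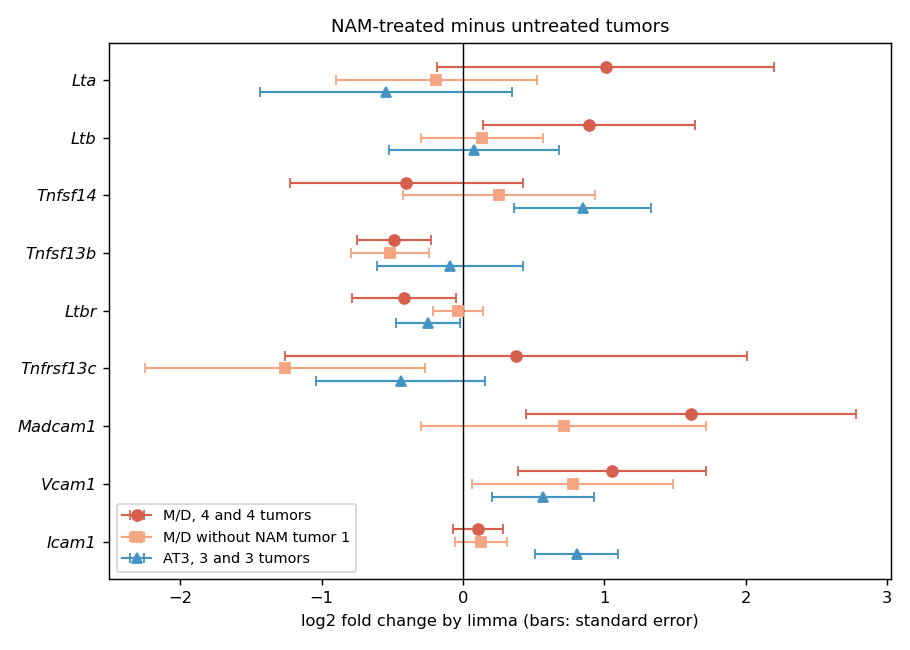
Log2 fold change of NAM-treated against untreated tumors (x axis) for each member (y axis), as estimated by limma, with the standard error as a bar, in the 8 M/D-driven tumors, in the 7 left without NAM-treated tumor 1, and in the 6 AT3 tumors. Icam1 in AT3 tumors, at 0.80, is the point that passed the test, and Madcam1 was not tested in AT3 tumors.

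Few neighboring pathway genes passed the test in M/D-driven tumors. None of 12 other receptors and ligands of the lymphotoxin, LIGHT and BAFF families passed the test, nor did any of 9 lymphoid chemokines, chemokine receptors and interleukin 7 genes, or any of 10 integrin and selectin partners. Among 14 NF-kB genes Birc2, which encodes an inhibitor of noncanonical signaling, rose (log2 fold change 0.59), and among 10 tested genes of high endothelial venules and lymphoid stroma Gcnt1, which encodes a glycosyltransferase for selectin ligands, rose (0.87). Gcnt1 still passed without NAM-treated tumor 1, and Birc2 did not. That tumor had the highest M/D-driven level for 7 of 9 genes of the chemokine list, with a summed normalized count of 38178 against 8352 to 15393, and for 6 of 8 endothelial markers, with 44919 against 8330 to 21738. It was highest for 8 of 9 B cell and 9 of 10 precursor B cell markers. The sum of 3 lymphatic endothelial markers was 3481 against 676 to 1520, whereas that of 5 dendritic cell markers was 1143 against 4096 to 12587. The sum of 10 T cell markers lay within the range of the other tumors, with 13014 against 3597 to 13796, although tumor 1 was highest for 3 of the 10 and lowest for 6. The part of these cell types in the levels of Lta, Ltb, Tnfrsf13c, Madcam1, Ltbr and Tnfsf14 in that tumor was not tested.

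**Figure D3:**
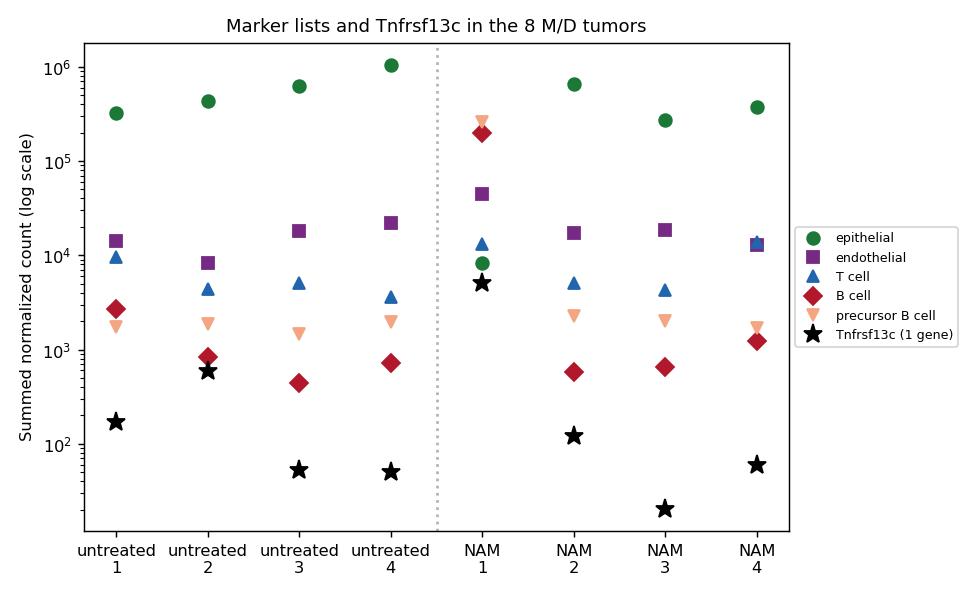
Summed normalized counts (y axis, log scale) of 5 marker lists and of Tnfrsf13c alone in the 8 M/D-driven tumors (x axis). In NAM-treated tumor 1 the B cell list reaches 196991 and Tnfrsf13c 5072, while the epithelial list is at 8283.

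The same question in AT3 tumors gave 1 member of 8 tested. Icam1 rose from 246 ± 85.6 to 416 ± 33.3 normalized counts (mean ± SD, n = 3 each), and its log2 fold change was 0.80 (SE 0.29, unadjusted p = 0.022 and adjusted p = 0.17 by limma). Of all 19281 genes tested in AT3 tumors 23.1% passed (12.2% higher), so that 1 of 8 members was not more than the share of all genes. Likewise, 22.6% of all genes separated the 2 groups. The exact permutation test over the 6 tumors gave p = 0.1, the smallest this design allows. The call was lost without untreated tumor 1 (log2 fold change 0.70), untreated tumor 2 (0.64) or NAM-treated tumor 2 (0.74), and kept with each of the other 3 left out. Across 16429 genes, the log2 fold change in AT3 tumors followed transcript length (Spearman rho 0.59, a description across genes that share the same 6 libraries). With the trend on length and GC content removed, Icam1 had 0.84 and passed.

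The other members did not pass in AT3 tumors. Tnfsf14 had a log2 fold change of 0.85 (SE 0.48, adjusted p = 0.29 by limma), and it passed at 1.10 once the trend on length and GC content was removed. Vcam1 had 0.57 (SE 0.36, adjusted p = 0.34) and passed without untreated tumor 3 (0.93). Estimates for Ltb, Tnfsf13b, Ltbr, Tnfrsf13c and Lta were 0.08, -0.09, -0.25, -0.44 and -0.54, with standard errors of 0.60, 0.52, 0.22, 0.60 and 0.89.

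Beside Icam1, 5 of 10 integrin and selectin partners rose with NAM in AT3 tumors and none fell. They included Itga4 (log2 fold change 1.77, SE 0.41), whose product binds Vcam1 and Madcam1, and Itgb7 (0.94, SE 0.35), its partner chain for Madcam1. Itgal (1.58, SE 0.39) and Itgam (1.18, SE 0.32), whose products bind Icam1, rose as well, all with adjusted p values of 0.17 by limma. With the length and GC trend removed 6 of 10 rose, against 7.88% of all genes. NF-kB genes rose in 4 of 14 cases, namely Rel (1.13), Ikbkg (0.87), Birc3 (0.80) and Ikbkb (0.59), of which only Birc3 passed with the trend removed. Among 10 tested receptors and ligands, the tumor necrosis factor receptor gene Tnfrsf1b (1.12) and the RANK gene Tnfrsf11a (1.07) rose and the APRIL gene Tnfsf13 fell (-0.85), the last of which did not pass with the trend removed. None of 8 chemokine list genes passed. Of 8 endothelial markers, 6 rose and 1 fell (4 rose with the trend removed), and their sum was 5157 to 6598 in untreated and 6963 to 9803 in NAM-treated tumors. The sum of 5 dendritic cell markers was 899 to 1496 untreated and 1684 to 2319 with NAM. No AT3 tumor had a summed B cell marker count above 251. Of 7 myeloid markers 3 rose, namely Adgre1 (1.05), Csf1r (1.04) and Mrc1 (0.82), while their sum was 46049 to 90600 untreated and 50225 to 66803 with NAM. Of 7 fibroblast markers the receptor genes Pdgfrb (1.44) and Pdgfra (1.14) rose, with sums of 53038 to 176825 and 84206 to 233067. With the trend removed Pdgfrb still passed and Pdgfra did not. The part of endothelial, dendritic, myeloid and fibroblast cell content in the Icam1 difference was not tested.

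An interaction term over the 14 tumors compared the effect of NAM between the models. None of the 9 members reached an unadjusted p of 0.05 by limma, as against 14.9% of 22710 genes, and none did by edgeR. DESeq2 called 1 member, Lta (3.42), with 18.9% of all genes called, and gave no p for Tnfrsf13c. That fit includes NAM-treated M/D-driven tumor 1, where Lta was 1614 against at most 156 in the other 7 M/D-driven tumors, and DESeq2 was not run without it. Icam1 came nearest, with a difference of -0.70 on the log2 scale (SE 0.32, unadjusted p = 0.051 and adjusted p = 0.34 by limma), that is, less increase in M/D-driven than in AT3 tumors. It passed with TMM factors (-0.82), with a minimum group mean of 50 (-0.70), without NAM-treated M/D-driven tumor 4 (-0.78) and without untreated AT3 tumor 3 (-0.96). With the length and GC trend removed it was -0.58 (unadjusted p = 0.17 by limma) and did not pass, and the difference followed transcript length across genes (Spearman rho -0.37). Without NAM-treated M/D-driven tumor 1 it was -0.68 (unadjusted p = 0.062 by limma), and again none of the 9 members passed, as against 17.0% of all genes. TMM factors also moved the genes that passed from 1584 higher and 1803 lower to 1220 higher and 2306 lower. The remaining differences ranged from -1.25 (Tnfsf14, SE 1.08) to 1.56 (Lta, SE 1.66). Both depended on NAM-treated M/D-driven tumor 1, without which Tnfsf14 was at -0.60 (SE 0.89) and Lta at 0.35 (SE 1.19), and without it all 8 remaining differences lay between -0.82 (Tnfrsf13c) and 0.35.

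The models themselves were then compared, after rescaling the recovered reads of the 14 tumors together. Model and experiment cannot be told apart in this comparison, since all AT3 tumors were experiment 3. For 8 of 9 members both M/D-driven group means were above both AT3 group means, and for Ltbr both were below. The share of all genes with such an order of means was not taken, so this count does not set the members apart. All 8 M/D-driven tumors were above all 6 AT3 tumors for Ltb, Vcam1 and Icam1, and all were below for Ltbr, whereas the models overlapped for 5 members. Among all genes, 8.48% separated the models with higher and 7.91% with lower levels in M/D-driven tumors. Without NAM-treated M/D-driven tumor 1, Tnfsf14 also separated the models with higher levels in the M/D-driven one and 4 members overlapped, where 12.7% of all genes separated with higher and 10.7% with lower levels. Without it, too, both M/D-driven group means were above both AT3 group means for 8 members and below them for Ltbr, again with no share of all genes taken. On this scale the M/D-driven tumors had 3732 to 5233 for Icam1, whereas AT3 tumors had 224 to 526. For Vcam1 these ranges were 1188 to 11243 and 155 to 398.

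Between untreated tumors, 6 of 9 members were higher and 1 was lower in the M/D-driven model (limma, called at an adjusted p not above 0.05 with a difference of 1.5-fold or more), while 50.5% of 21713 genes passed (27.2% higher and 23.2% lower). Icam1 differed most clearly, with 4237 ± 413 (SD, n = 4) against 302 ± 109 (SD, n = 3), a log2 difference of 3.86 (SE 0.25, adjusted p = 4.0e-05 by limma). Icam1 had the largest difference of the 9 members, and 5.25% of all genes had one at least as high. Vcam1 was 2094 ± 761 against 255 ± 127 (log2 difference 3.09, SE 0.37, adjusted p = 0.00043 by limma). For the addressin Madcam1 the log2 difference was 3.66 (SE 1.05, adjusted p = 0.019 by limma). Its size depends on the pseudocount, being 4.06 with 0.5 and 2.53 with 5, and the call was lost without untreated M/D-driven tumor 1 or without untreated AT3 tumor 1.

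Of the 4 ligands, 3 were also higher in untreated M/D-driven tumors. Ltb had a log2 difference of 2.12 (SE 0.52, adjusted p = 0.0095 by limma), Tnfsf14 of 2.32 (SE 0.54, adjusted p = 0.0079) and Tnfsf13b of 1.46 (SE 0.34, adjusted p = 0.0073). Lta had 1.68 (SE 0.77, adjusted p = 0.094) and did not pass, nor did Tnfrsf13c with 1.75 (SE 0.87, adjusted p = 0.12). Ltbr went the other way, with 3593 ± 562 in M/D-driven and 6880 ± 1725 in AT3 tumors (log2 difference -0.92, SE 0.22, adjusted p = 0.0090 by limma). Thus, in this contrast between 2 models that also differ in experiment, the receptor was lower where its ligand genes Ltb and Tnfsf14 were higher. Within models no such relation was seen. Spearman rho of Ltbr, on values centered per model, was -0.24 with Ltb and 0.08 with Tnfsf14. Without NAM-treated M/D-driven tumor 1 these were 0.04 and -0.13. After removal of the length and GC trend, which moved the median over all genes from 0.04 to -0.34 and the genes that passed to 19.5% higher and 33.6% lower, Tnfsf13b was at 0.82 and no longer passed, and the other 6 calls were kept. The 7 members that passed separated the 2 groups without overlap, as did 53.8% of all genes.

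**Figure D4:**
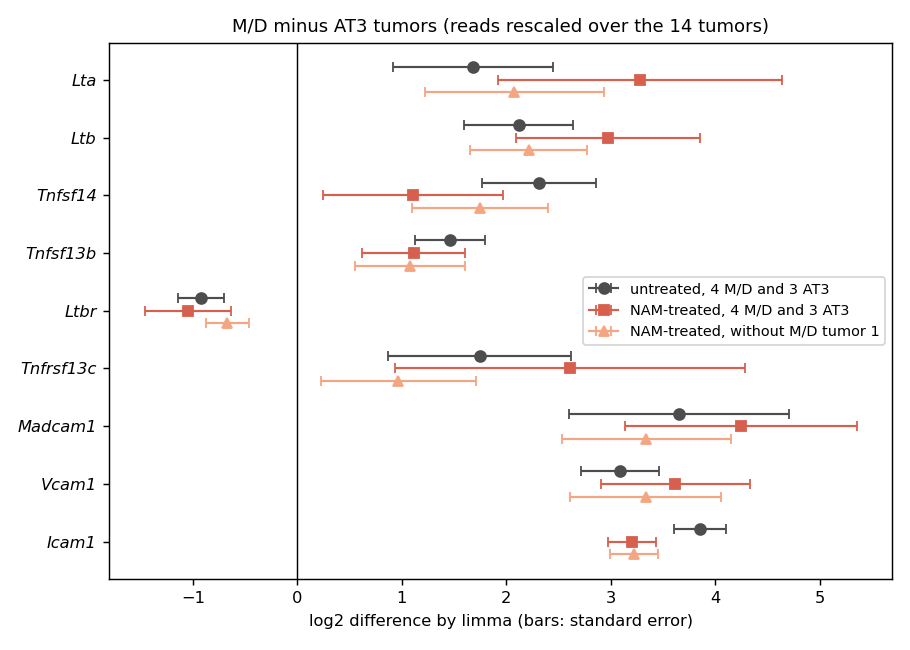
Log2 difference of M/D-driven minus AT3 tumors (x axis) for each member (y axis), by limma with the standard error as a bar, between untreated tumors, between NAM-treated tumors, and between NAM-treated tumors without M/D-driven tumor 1. Ltbr lies below 0 in all 3 fits and the other 8 members lie above it, with Icam1 at 3.86, 3.21 and 3.22.

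The counts for the lists around them stand beside 27.2% of all genes higher and 23.2% lower in untreated M/D-driven tumors. With the length and GC trend removed, these shares were 19.5% and 33.6%. Of 14 NF-kB genes 11 were higher and 1 lower, among them Birc3 (log2 difference 3.40) and Rel (2.07), although with the length and GC trend removed only 2 were higher and 2 lower. Of 10 integrin and selectin partners 8 were higher, including Itgal (3.68) and Itga4 (3.44), and with the trend removed 6 were higher and 1 lower. Of 12 receptors and ligands 6 were higher, including the RANKL gene Tnfsf11 (3.56) and Tnfrsf11a (2.69). Of 9 high endothelial venule and lymphoid stroma genes tested 6 were higher, including Glycam1 (5.72) and Tnfaip2 (4.28), and 1 was lower. Glycam1 varied widely, with 2704 ± 4373 (SD) in untreated M/D-driven and 15.9 ± 5.55 in untreated AT3 tumors. The cells that Glycam1 came from were not tested. Of 9 chemokine list genes 3 were higher, namely Ccl19 (6.31), Cxcl12 (2.60) and Il7r (1.53), and 1 was lower, the chemokine receptor gene Cxcr4 (-1.93). Ccl19 was at 0 in all untreated AT3 tumors, so the size of its difference depends on the pseudocount. The sum over 10 T cell markers was 3345 to 8771 in untreated M/D-driven and 609 to 3285 in untreated AT3 tumors, with 7 of 10 markers passing. Endothelial sums were 7825 to 20214 and 6396 to 7857, and dendritic cell sums were 5416 to 5999 and 1115 to 1856. Of 7 myeloid markers Csf1r (2.75), Mrc1 (2.36) and Adgre1 (2.17) were higher and Cd14 (-1.83) was lower, with sums of 96536 to 166587 and 54840 to 112368. Of 7 fibroblast markers 3 were higher, including Pdgfrb (2.23) and Pdgfra (1.92), with sums of 56897 to 349221 and 65806 to 210581. Epithelial sums were 299856 to 971323 and 106426 to 136986. The part of this cell content in the differences of Icam1, Vcam1, Madcam1, Ltb, Tnfsf14 and Tnfsf13b was not tested.

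NAM-treated tumors, which share no tumor with the comparison of untreated ones, gave 2 of 9 members, with 7.83% of 21425 genes passing (5.0% higher). Icam1 had a log2 difference of 3.21 (SE 0.23, adjusted p = 0.0012 by limma) and Vcam1 of 3.62 (SE 0.71, adjusted p = 0.025). Vcam1 no longer passed without NAM-treated M/D-driven tumor 3 or any 1 of the 3 AT3 tumors, although its estimate stayed between 3.51 and 3.78 in these fits. Without NAM-treated M/D-driven tumor 1, 17.0% of genes passed and 4 members did, namely Icam1 (3.22), Vcam1 (3.33), Madcam1 (3.34) and Ltb (2.22). The estimate for Ltbr was -1.05 (SE 0.41, adjusted p = 0.16) with that tumor and -0.67 (SE 0.21, adjusted p = 0.064) without it, and did not pass in either case. With the length and GC trend removed, Ltbr passed at -1.33, where the median over all genes was -0.29.

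The genes most like each member were also identified. Log2 values were centered on the mean of each model, and Spearman rho over the 14 tumors was taken as the measure of likeness among 15413 genes tested in both models (15414 for Madcam1), as a description of points that share libraries. Lta and Ltb were most alike among the 36 pairs of members (rho 0.87), followed by Vcam1 and Icam1 (0.65), whereas Ltbr and Vcam1 ran opposite (-0.60). Without NAM-treated M/D-driven tumor 1 these were 0.90, 0.75 and -0.41 over 13 tumors, and Lta with Tnfsf13b (0.79, from 0.54) came ahead of Vcam1 with Icam1. For the genes named next, rho without that tumor ranged from 0.57 (Cmah) to 0.94 (Napsa and Tlr13). Ltb was closest to Rhoh (0.96), Napsa (0.96) and the T cell marker Cd2 (0.96), and Lta to Pcgf5 (0.96), Pydc4 (0.93) and Epsti1 (0.93). Tnfsf14 was closest to Tlr13 (0.90) and Siglecf (0.89), and Tnfsf13b to Bcl2a1a, E230029C05Rik and Tm4sf5 (all 0.83). Ltbr was closest to Flywch2 (0.96), C630043F03Rik (0.96) and Prrg2 (0.93), and Tnfrsf13c to Gmds (0.90), Rfc2 (0.87) and Hsh2d (0.86). Madcam1 was closest to Gm40812 (0.87), Mtl5 (0.86) and Cmah (0.83). Vcam1 was closest to Efcab2 (0.94), Trim5 (0.90) and Plcb2 (0.90), and Icam1 to Adrbk2 (0.89), Adam5 (0.88) and Mapk9 (0.86).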

How the data were processed

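Poly(A) RNA from 14 tumors was sequenced as paired reads of 75 bases. The authors mapped reads with STAR 2.4.0 on mm10, counted them on constitutive regions of Mouse FAST DB genes and normalized the counts with DESeq2, and the deposited values are this normalized signal, per model. All values were whole multiples of 1 step per tumor (100.0% within a tolerance of 0.01), which gave back whole reads. A count of 0 columns was left unmapped. Groups and replicate numbers came from the labels. The members and gene lists were chosen with earlier results of these data known, and all members are named, with up to 4 genes that passed per list and comparison, ranked by fold change, and the 3 genes most like each member, although some results under this rule are not reported here. The filter on expressed genes given in the methods had not been applied to the table, where 19524 genes are at 0 in all tumors.

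Genes averaging 10 or more in any group were fitted in limma 3.58.1 (R 4.3.3, mean-variance trend) on log2(normalized count + 1), so that fold changes of low genes are understated. Models were compared after a median-of-ratios rescaling of reads over the 14 tumors. Scripts were tested on simulated data. Alternatives were pseudocounts of 0.5 and 5, no filter or a minimum of 50, TMM factors, edgeR 4.0.16 quasi-likelihood and DESeq2 1.42.0 Wald tests on the reads, removal of a spline trend on transcript length and GC content (4 degrees of freedom each), the replicate number as a block, 1 fit over all tumors, and each tumor left out. After the data were seen, the order of the models and the likeness between genes were also taken without NAM-treated M/D-driven tumor 1. Transcript lengths were found for 85.1% (M/D-driven) and 85.2% (AT3) of genes tested.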

Additional observations from a re-analysis of the deposited data

Results flagged for a closer look

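Among 18 groups of 4 M/D-driven tumors, that is 9 members in 2 treatments, 4 held a normalized count whose gap to the nearest tumor, as a share of the group's range, exceeded Dixon's 95% critical value for 4 samples. Chance flags about 1 in 20 groups only where values are normally distributed and groups are independent. Normality was not checked, and the groups share tumors, so the number of flags cannot be set against that rate. Among NAM-treated tumors this was tumor 1 for Lta (1614), Ltb (7886) and Tnfrsf13c (5072), with gaps of 0.917, 0.886 and 0.98. Among untreated tumors it was tumor 1 for Ltb (1632, gap 0.888), which also stood out on the log2 scale, at 10.67 (gap 0.832), where no other group did. Groups of 3 AT3 tumors were not tested.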

How the results depend on the processing

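Of 801 estimates for single members under alternatives, 748 kept their direction and their side of the thresholds, 21 newly passed, 13 no longer passed and 19 reversed. The number of members that passed for NAM in M/D-driven tumors was 0, 2 by DESeq2 (Madcam1 2.19 and Vcam1 1.48), and 0 to 1 with each tumor left out. By edgeR it was 0. In AT3 tumors it was 1, 2 with the length and GC trend removed, and 0 to 2 with each tumor left out. For the difference between models it was 0, 1 with a minimum group mean of 50, 1 with TMM factors, 1 by DESeq2 (Lta, 3.42), and 0 to 1 with each tumor left out. For untreated M/D-driven against AT3 tumors it was 7, and 6 to 8 under the alternatives, and for NAM-treated tumors it was 2, 4 by DESeq2, 5 with all 14 tumors in 1 fit, and 1 to 4 with each tumor left out.

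With NAM in M/D-driven tumors, Tnfsf14 reversed to 0.041 by edgeR and 0.071 by DESeq2. All other reversals came from leaving out a tumor. In M/D-driven tumors Lta then ranged from -0.19 to 1.82, Tnfsf14 from -1.03 to 0.25 and Tnfrsf13c from -1.26 to 1.37. In AT3 tumors Lta ranged from -1.37 to 0.065, Ltb from -0.52 to 0.48, Tnfsf13b from -0.52 to 0.42 and Tnfrsf13c from -0.80 to 0.0056. For the difference between models, Tnfsf13b ranged from -0.91 to 0.033, Ltbr from -0.36 to 0.21, Tnfrsf13c from -0.82 to 1.81, Madcam1 from -0.25 to 1.34 and Vcam1 from -0.0072 to 1.10. Where a tumor or a test changed a call, the cause was not tested.

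Same-numbered tumors did not deviate together, with correlations of 0.11, -0.44, -0.22 and -0.19 in M/D-driven and 0.13, 0.26 and -0.16 in AT3 tumors. When the replicate number entered as a block, 0 members passed in M/D-driven tumors, 1 in AT3 tumors, 0 for the difference (Icam1 adjusted p = 0.44 by limma), 6 between untreated models (Madcam1 no longer, 3.18) and 0 between NAM-treated models, where 3 genes were higher and 4 lower in all.

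Numbers of all genes also moved by over 1.5 times. For genes raised by NAM in the M/D-driven model (658) there were 1219 with no filter, 312 with a minimum of 50, 992 by edgeR and 1325 by DESeq2, and for genes lower (692) 1207 in the fit over all tumors. Of genes higher and lower with NAM in AT3 tumors (2358 and 2100), 1295 and 1299 were left with the trend removed. Lower differences between models fell from 1803 to 953 with the trend removed. For untreated models, higher genes went from 5916 to 3544 with the trend removed and lower genes from 5047 to 3284 with the block. For NAM-treated models (1071 higher and 607 lower) there were 658 higher by edgeR, 2982 and 1331 by DESeq2, 1722 lower with the trend removed, and 2257 and 1450 in the fit over all tumors. With each tumor left out, genes higher and lower ranged from 395 to 1201 and 351 to 1511 for NAM in M/D-driven tumors, from 904 to 3459 and 714 to 3310 in AT3 tumors, from 873 to 2252 and 966 to 2468 for the difference, and from 176 to 2413 and 62 to 1212 between NAM-treated models. TMM factors moved the median difference between untreated models from 0.04 to 0.16, and member directions held. Depth limits Madcam1 and Lta in AT3 tumors, which rest on at most 8 and 44 reads.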
